A study of Mus musculus with 4 samples.

Results

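The 8 genes described here were Ttr, Folr1, Enpp2, Kl, Clic6, Aqp1, Otx2 and Prlr, out of 32285 genes counted in nuclei of the mouse posterior hindbrain. They were chosen by their measured levels, which were highest in the nuclei annotated as Choroid plexus, so their height in that type is a description and carries no test. Their unique molecular identifier (UMI) counts, each standing for 1 captured RNA molecule, were followed through all 14 annotated cell types in each of 4 libraries and set beside the number of choroid plexus nuclei in the library. That number was 773 of 39461 nuclei kept by the authors.

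The tissue was the part of the hindbrain that holds the area postrema (AP) and the nucleus tractus solitarius (NTS), and single-nucleus RNA libraries of sorted, DRAQ5-stained nuclei were made with 10x Genomics 3′ chemistry. Both groups received clozapine-N-oxide (CNO) at 3 mg per kg by intraperitoneal injection, the tissue was taken 1 h later, and the mice of both sexes were 12 to 20 weeks old. The AgRP-Gq;POMC-Gi group carried AgRP-IRES-Cre+/-, hM3DGq fl/-, POMC-Dre+/- and hM4DGi fl/-, so that Cre put the activating receptor hM3DGq into AgRP neurons and Dre put the inhibiting receptor hM4DGi into POMC neurons. The control group, labelled WT, carried the hM3DGq fl/- and hM4DGi fl/- alleles without Cre or Dre according to the methods of the study. Each group had 2 libraries from pooled tissue, called C1 and C2 for control replicates 1 and 2 and A1 and A2 for the replicates 1 and 2 of AgRP-Gq;POMC-Gi, and which mouse gave nuclei to which library was not given in the sources used here. Neither recombinase is directed at the choroid plexus.

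The choroid plexus is the folded epithelium that hangs into the ventricles and makes the cerebrospinal fluid. Its cells carry water, ions, folate and hormones from blood to fluid, and the plexus of the fourth ventricle lies next to the AP. Transthyretin, encoded by Ttr, is its best known product and carries thyroid hormone and retinol in the fluid. In droplet libraries, RNA that has leaked from broken cells is captured along with that of each nucleus, so an abundant RNA can be counted in nuclei that do not make it.

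The deposited libraries held between 9723 and 10051 kept nuclei and between 48904976 and 53089402 UMIs, with median depths of 3211 to 3502 UMIs per nucleus. Between 19 and 36 kept barcodes were shared by a pair of libraries, and 4 choroid plexus barcodes occurred in another library. The nuclei annotated as Choroid plexus were unevenly spread over the libraries. C1 held 2 of them and C2 held 436. A1 held 6 and A2 held 329. As shares of kept nuclei these were 0.0206%, 4.34%, 0.0617% and 3.30%, with exact 95% binomial intervals of 3.95 to 4.75% in C2 and 2.96 to 3.67% in A2. These and all other intervals given here cover counting error only. The unevenness lay within the groups, with each group holding 1 library rich in choroid plexus nuclei and 1 that nearly lacked them. Ependymal nuclei, which also line the ventricle, numbered 76, 64, 90 and 84 in the same order of libraries and tanycyte-like nuclei 26, 26, 67 and 83. Fibroblasts numbered 72, 391, 186 and 170 and F13a1.Immune nuclei 15, 37, 17 and 19, so that both were more numerous in C2 than in C1, while fibroblasts were fewer in A2 than in A1.

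**Figure D1:**
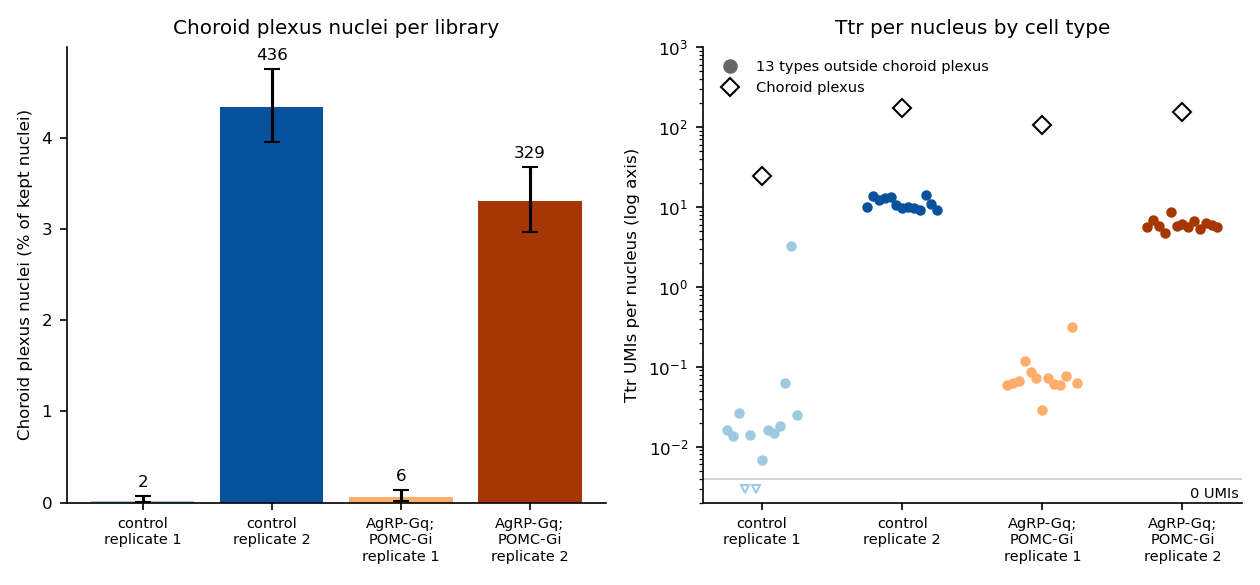
Left, choroid plexus nuclei as a percentage of kept nuclei in each library, with exact 95% binomial intervals and the number of nuclei above each bar. Right, mean Ttr UMIs per nucleus (log axis) in each of the 13 other annotated types as dots and in Choroid plexus as a diamond; the 13 types of C2 lie between 9.25 and 14.03, and 2 types of C1 had no UMI.

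The nuclei annotated as Choroid plexus were then described by their markers. In C2, A1 and A2, 428, 6 and 324 of the choroid plexus nuclei held UMIs of at least 4 of the 8 genes, which is 98.2%, 100% and 98.5%; since the genes were chosen on these nuclei, the shares do not check the annotation. Of 5 further markers, Tmem72 stood at 0, 696, 1035 and 792 CPM (counts of the gene per 1e6 UMIs of the summed nuclei) in C1, C2, A1 and A2, and Kcnj13 at 0, 501, 557 and 540 CPM. Sostdc1, Kcne2 and Slc4a5 were likewise at 0 in C1 and above 100 CPM in each other library. The 2 nuclei of C1 also held fewer than 4 of the 8 genes each. One of them had 4006 UMIs with no Ttr, 7 Enpp2 and 1 Prlr, and the other had 5240 UMIs with 48 Ttr, 1 Folr1 and 1 Clic6. Their summed level of Mobp, a gene of oligodendrocytes, was 649 CPM, against 31.4 and 18.6 CPM in the choroid plexus nuclei of C2 and A2. That of Slc1a2, the glutamate transporter of astrocytes, was 865 CPM against 31.9 and 19.2 CPM. These levels in C1 rest on 6 Mobp and 8 Slc1a2 UMIs. Of the other astrocyte markers, Slc1a3 and Gja1 had 2 and 1 UMIs in C1, and Aqp4 and Gfap had 0. In C2 and A2 Aqp4 stood at 13.4 and 10.2 CPM and Gfap at 2.06 and 3.84 CPM. The 2 nuclei are therefore called the nuclei annotated as Choroid plexus in C1, and the levels inside the choroid plexus below rest on the other libraries. One tanycyte-like nucleus of C1, with 12206 UMIs, held 7 of the 8 genes, among them 85 Ttr and 53 Enpp2 UMIs.

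Markers of other types were low in the well-filled choroid plexus libraries, with some exceptions. Tmem119 of microglia, Col1a1 of fibroblasts, Crym, Cd163, Ms4a4b and Cd3e were at 0 UMIs in all of them. Slc1a3, an astrocyte transporter, stood at 3.09 and 3.20 CPM in C2 and A2. Of 7 ependymal markers, Foxj1, the ciliary transcription factor, stood at 57.1 and 73.6 CPM there. Cfap299 stood at 103 and 99.9 CPM and Spag17 at 23.2 and 12.2 CPM. Each lay above its level in the summed nuclei of all other types. Ependymal nuclei were only 64 and 84 of these in C2 and A2, and the level in Ependymal itself was not compared. The other 4 ependymal markers were low, with Dnah12 at 2.57 and 3.84, Ccdc153 at 2.57 and 0, Tmem212 at 2.57 and 1.28 and Rarres2 at 4.63 and 5.76 CPM. Cx3cr1, listed with microglia, stood at 250 and 211 CPM, while Csf1r of the same list was at 2.06 and 3.84 CPM.

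Promoter windows are shown because Otx2, among the 8 genes, encodes a transcription factor whose binding letters can be searched for in the others. OTX2 is a homeodomain protein needed to form the choroid plexus and binds TAATCC. RefSeq windows of 250 bases upstream of annotated starts, on GRCm38.p6, were at hand for 4 of the genes (Kl, Aqp1, Otx2 and Prlr, 9 windows in all). The motif was searched on both strands, and it occurred in 1 of these 9 windows, against 2054 of 32851 windows over all genes, or 6.25%. The window with the match belonged to an internal start of Otx2 itself, at chr14:48665110-48665359 on the minus strand, with the match on the other strand (GGATTA) beginning 211 bases before the start. It is printed with the match in capitals, followed by the windows just before the first base of Kl (chr5:150952357-150952606, plus strand) and of Prlr (chr15:10176988-10177237, plus strand), which hold none. All run 5′ to 3′ along the transcript. A match of letters says nothing on binding.
Otx2: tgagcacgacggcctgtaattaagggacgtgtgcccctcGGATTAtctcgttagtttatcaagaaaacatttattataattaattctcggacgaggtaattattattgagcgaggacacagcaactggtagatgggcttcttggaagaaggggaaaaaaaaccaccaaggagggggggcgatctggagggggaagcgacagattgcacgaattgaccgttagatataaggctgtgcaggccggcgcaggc
Kl: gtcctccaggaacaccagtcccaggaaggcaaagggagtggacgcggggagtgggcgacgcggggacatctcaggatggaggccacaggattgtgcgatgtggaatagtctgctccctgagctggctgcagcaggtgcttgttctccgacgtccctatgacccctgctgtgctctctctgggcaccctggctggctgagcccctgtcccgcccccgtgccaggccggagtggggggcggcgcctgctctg
Prlr: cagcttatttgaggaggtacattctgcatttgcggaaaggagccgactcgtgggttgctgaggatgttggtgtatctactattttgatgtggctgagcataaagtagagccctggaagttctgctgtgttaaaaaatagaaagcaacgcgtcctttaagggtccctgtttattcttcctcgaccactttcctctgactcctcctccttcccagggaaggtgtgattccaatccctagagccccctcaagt

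The carrier and receptor genes filled the choroid plexus nuclei. The Ttr level was 38941 CPM in C2, 24990 in A1 and 32484 in A2, while the nuclei annotated as Choroid plexus in C1 gave 5191. A choroid plexus nucleus held 173.6 Ttr UMIs on average in C2 and 154.2 in A2, with medians of 118.5 and 115. All nuclei of both libraries had at least 1. Ttr spans 9.04 kb on chromosome 18 and is the shortest of the 8 genes. Folr1, the folate receptor alpha that carries folate into the fluid (chr7:101858331-101870788, 12.5 kb), stood at 382, 318 and 368 CPM in the same 3 libraries and was seen in 72.5% and 74.2% of choroid plexus nuclei of C2 and A2. Prlr, the prolactin receptor (chr15:10177238-10349180, 171.9 kb), stood at 1039, 1393 and 1016 CPM and was seen in 83.5% and 89.1% of nuclei. Kl, the co-receptor of fibroblast growth factor 23 (chr5:150952607-150993817, 41.2 kb), stood at 675, 159 and 618 CPM, and the low value came from the 6 nuclei of A1. Over these libraries Folr1 and Prlr varied less than Kl.

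The enzyme, channels and transcription factor followed. Enpp2 encodes autotaxin, the secreted enzyme that makes lysophosphatidic acid (chr15:54838901-54952892, 114.0 kb). It stood at 12304, 13768 and 13289 CPM and was found in every choroid plexus nucleus of C2 and A2. Clic6, of the chloride intracellular channel family (chr16:92485736-92541243, 55.5 kb), stood at 821, 637 and 654 CPM and was seen in 87.8% and 88.8% of nuclei. Otx2 (chr14:48657677-48673819, 16.1 kb) stood at 451, 279 and 434 CPM and was seen in 78.9% and 80.5%. Aqp1 was the exception among the 8. This water channel of the apical membrane (chr6:55336432-55348555, 12.1 kb) stood at only 23.2 and 30.1 CPM in C2 and A2 and at 0 in both other libraries, with a UMI in 10.3% and 12.2% of choroid plexus nuclei. Coordinates are those of GENCODE M21 on GRCm38, and each gene lies there as a protein-coding gene.

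Ttr also varied among the choroid plexus nuclei themselves. The authors' clustering divided the type into 3 clusters. Cluster 29 (138 nuclei in C2 and 84 in A2) held Ttr at 78790 and 65204 CPM. Cluster 23 (186 and 164 nuclei) held it at 27650 and 24583 CPM, and cluster 34 (112 and 81 nuclei) at 25909 and 26636 CPM. In CPM Folr1 ran in the same order in each library, at 550 and 600 in cluster 29, 340 and 301 in cluster 23 and 320 and 345 in cluster 34. Per nucleus Folr1 lay closer, at 1.79, 1.64 and 1.71 UMIs in clusters 29, 23 and 34 of C2. In A2 it was 2.00, 1.48 and 2.02, with cluster 34 highest. Ttr per nucleus was still highest in cluster 29, at 256.6 UMIs in C2 and 217.2 in A2. Enpp2 lay between 11221 and 13844 CPM and Otx2 between 382 and 465 CPM over these 3 clusters and both libraries. Clusters are built from expression, so these values describe them and carry no test.

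All 8 genes had their highest mean level over the 4 libraries in Choroid plexus, as the choice of the genes requires, and what differed was the type that came next. These means include C1, and without it all 8 were still highest in Choroid plexus. The plot of CPM by cell type shows each library. The fold over the next type was 31.2 for Prlr, 30.6 for Clic6, 19.1 for Otx2, 8.43 for Ttr, 8.20 for Folr1, 7.96 for Enpp2, 5.80 for Kl and 2.36 for Aqp1. With 1 library left out it ranged from 20.5 to 40.6 for Prlr, 24.3 to 43.1 for Clic6, 13.6 to 25.7 for Otx2, 6.38 to 14.7 for Ttr, 7.15 to 10.0004 for Folr1, 7.26 to 9.70 for Enpp2, 3.78 to 7.67 for Kl and 1.67 to 2.86 for Aqp1, so that the order of the genes by fold is not settled. The high end for Ttr (14.7) and the low end for Kl (3.78) came without C2, and the low end for Prlr (20.5) without A1. Among 12122 genes with enough UMIs in choroid plexus nuclei these folds ranked from 22 (Prlr) to 307 (Aqp1). The next type was Endothelial for Ttr, Oligodendrocytes for Enpp2, Fibroblasts for Kl, Neurons for Prlr and Ependymal for Folr1, Clic6, Aqp1 and Otx2. For Prlr and Otx2 it was Tanycyte-like without any 1 of C2, A1 and A2. All 10 Prlr and all 4 Otx2 UMIs of Tanycyte-like in C1 came from the single nucleus described above. The type held 0, 0 and 1 Prlr UMIs in C2, A1 and A2, and 1, 0 and 1 Otx2 UMIs. The Tanycyte-like level behind the low ends of 20.5 and 13.6 thus rests mainly on that nucleus. The choroid plexus mean was also lower in these folds, at 721 CPM for Prlr without A1 and 243 CPM for Otx2 without A2. Over the 4 libraries it was 889 and 291 CPM. For Ttr, each neighbouring pair in the order of the 13 other types differed by less than the SD over libraries of the higher one. The ends of the order were 3014 ± 3753 CPM (SD, n = 4) in Endothelial and 398 ± 486 CPM in Neurons. That SD mostly holds the gap between replicates 1 and 2, so it does not measure the order within a library. OPC stood above Neurons in each library, at 3.10, 2426, 17.9 and 1664 against 1.49, 1003, 7.53 and 580 CPM. Endothelial and F13a1.Immune, the first pair, changed places in A1, at 40.8 and 69.9 CPM. Aqp1 stood at 23.2 and 30.1 CPM in Choroid plexus of C2 and A2, above the 9.95 and 8.69 CPM of Ependymal in these libraries, and at 0 in the 2 and 6 choroid plexus nuclei of C1 and A1.

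**Figure D2:**
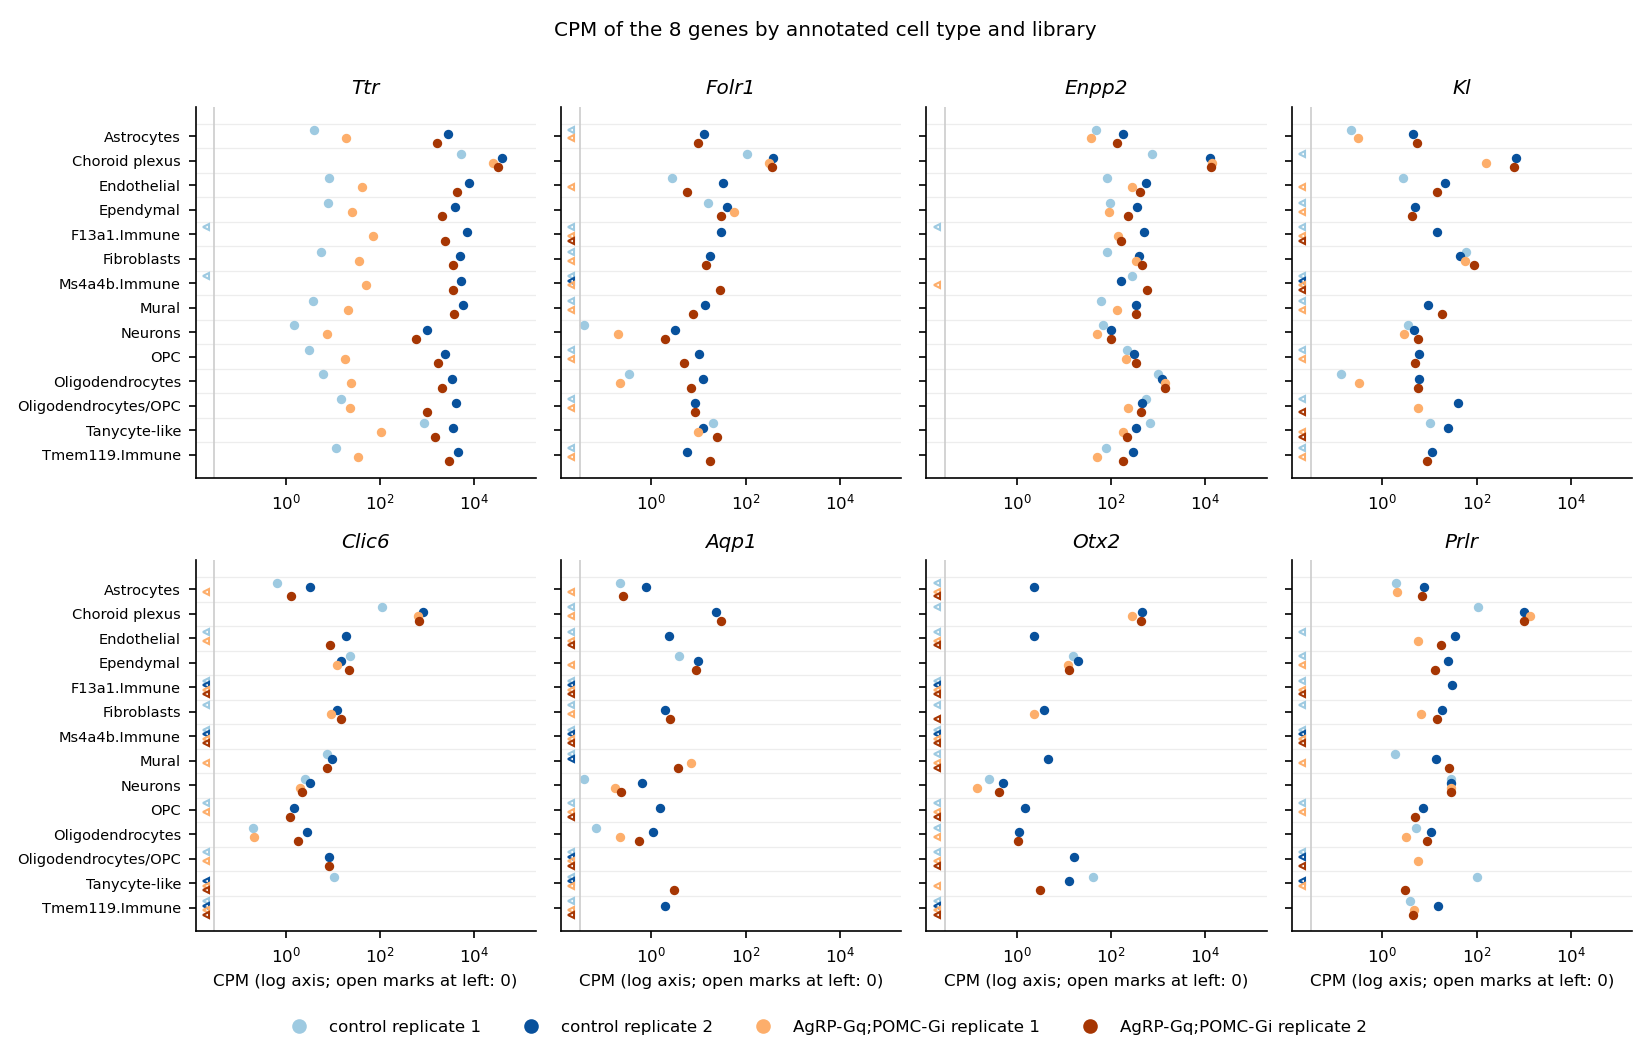
CPM (log axis) of each of the 8 genes in every annotated cell type, with 1 mark per library and open marks at the left for 0. For Ttr the replicate 2 libraries lie far to the right of the replicate 1 libraries in every type other than Choroid plexus and, less so, Tanycyte-like, while for Enpp2 in Oligodendrocytes and Prlr in Neurons the 4 libraries lie together.

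Outside the choroid plexus, Ttr was nearly absent from one library of each group and present in almost every nucleus of the other. C1 had 251 Ttr UMIs in 9723 nuclei of other types, or 5.06 CPM, of which 85 were in the single tanycyte-like nucleus above. C2 had 95182 UMIs, or 2027 CPM, A1 had 648, or 12.7 CPM, and A2 had 54160, or 1051 CPM. The libraries with 436 and 329 choroid plexus nuclei were the high ones and those with 2 and 6 the low ones, with no overlap of levels between the pairs. The level in replicate 2 was 401 times that in replicate 1 in the control group (95% counting interval 354 to 455) and 82.7 times in the AgRP-Gq;POMC-Gi group (76.6 to 89.5). The relation is the one by which the genes were chosen, 4 libraries are too few for a correlation, and none was computed.

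The share of nuclei with a Ttr UMI moved from rare to nearly complete. It was 1.44% of the nuclei of other types in C1, 99.9% in C2, 5.46% in A1 and 98.9% in A2. Only 7 nuclei in C2 and 107 in A2 lacked one, against 9583 and 9186 in the replicate 1 libraries. After every nucleus had been thinned to 800 UMIs the shares were 0.391%, 81.6%, 1.51% and 64.5%, in the same order. The number of UMIs per nucleus formed a single hump around a median of 9 in C2 and 5 in A2, with variances of 86.4 and 35.9 against means of 9.90 and 5.62.

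**Figure D3:**
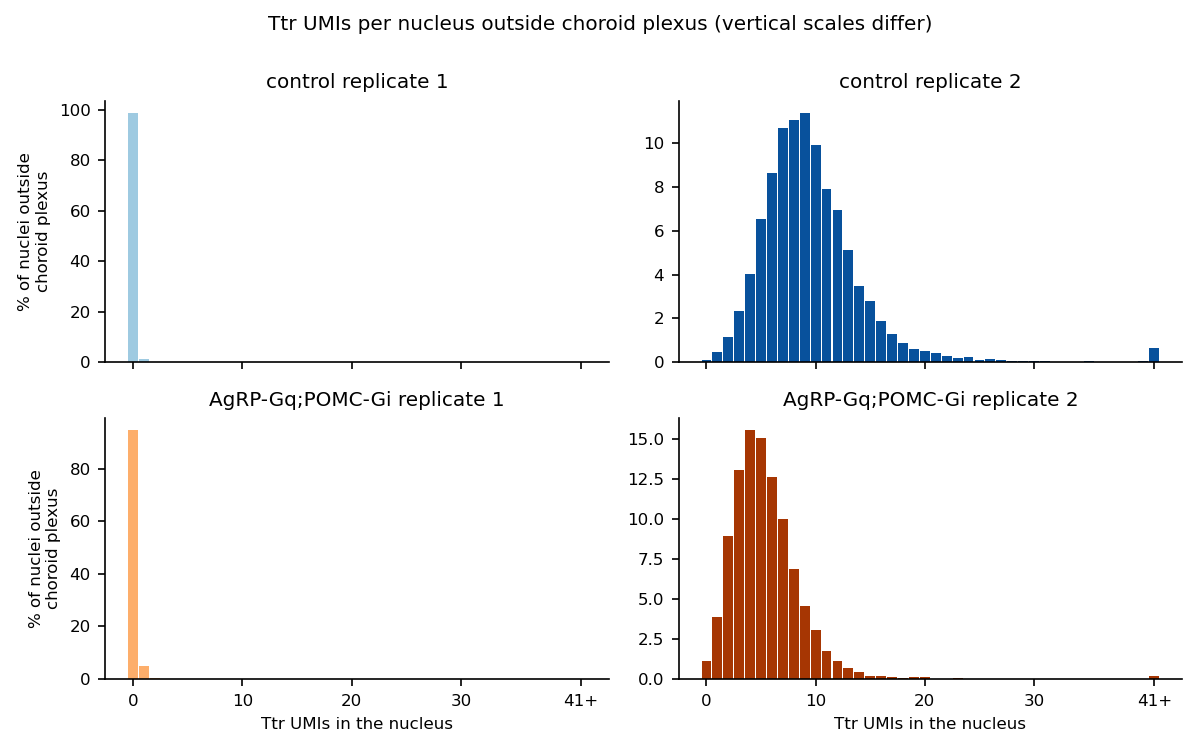
Share of nuclei outside Choroid plexus (vertical axis, %, scales differ between panels) by the number of Ttr UMIs in the nucleus (horizontal axis), 1 panel per library, with 41 or more pooled in the last bar. The replicate 1 libraries stand almost wholly at 0, and the replicate 2 libraries form a hump with a median of 9 and 5.

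The number of Ttr UMIs per nucleus varied less over the cell types than depth did. In C2 the mean over nuclei lay between 9.25 in Oligodendrocytes and 14.03 in Oligodendrocytes/OPC over the 13 types, a 1.52-fold range. In A2 it lay between 4.68 in F13a1.Immune and 8.67 in Fibroblasts, a 1.85-fold range. The top of the C2 range, 14.03, came from 36 nuclei, and 1 of them held 158 Ttr UMIs. Larger types of C2 lay close below it, with 13.65 in 246 endothelial nuclei and 13.14 in 391 fibroblasts. The median depth of the 13 types ranged 5.77-fold in C2 and 7.65-fold in A2. Because CPM divides by depth, the same UMIs appeared as a 7.78-fold range of CPM in C2, from 1003 in Neurons to 7807 in Endothelial, and a 7.24-fold range in A2, from 580 to 4200. Types with small nuclear RNA content thus stood high in CPM, with Tmem119.Immune, the microglia, at 4589 and 2914 CPM.

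Within a type the picture was the same. Oligodendrocytes of C2, divided into quartiles of depth with medians from 1560 to 4105 UMIs, held 8.684, 8.996, 9.428 and 9.903 Ttr UMIs per nucleus, while their CPM fell from 5680 to 2221. Neurons of that library, with quartile medians from 4644.5 to 16239 UMIs, held 9.65, 9.70, 10.1 and 10.8 per nucleus, while their CPM fell from 2201 to 613. In A2 the oligodendrocyte quartiles held 4.91 to 5.69 and the neuron quartiles 5.20 to 6.23 per nucleus. Over 153 clusters of at least 10 nuclei in C2, the 10th to 90th percentile of the mean was 8.74 to 12.0 UMIs per nucleus, and over 158 clusters in A2 it was 4.78 to 6.73. The highest cluster in C2 was endothelial cluster 169, with 35.4 per nucleus.

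**Figure D4:**
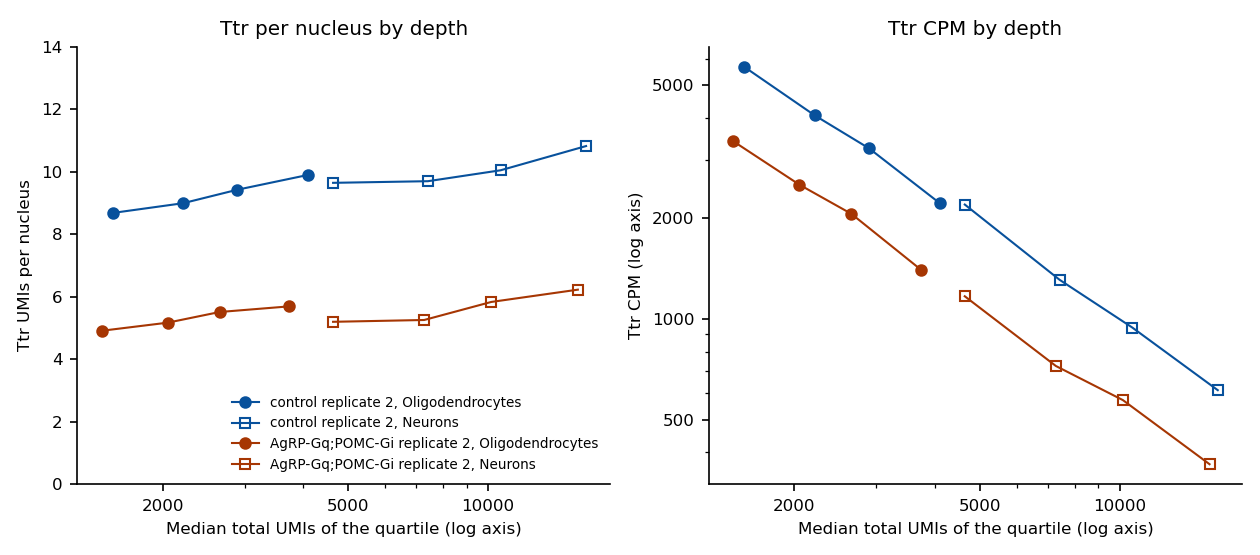
Mean Ttr UMIs per nucleus (left) and Ttr CPM (right, log axis) in 4 quartiles of nuclear depth (horizontal, median UMIs of the quartile, log axis) for oligodendrocytes and neurons of both replicate 2 libraries. Per nucleus the level rises only from 8.68 to 9.90 over the oligodendrocyte quartiles of C2, while the CPM falls from 5680 to 2221.

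Much of the Ttr RNA of each library was counted outside the annotated choroid plexus nuclei. The share of Ttr UMIs that lay outside was 83.9%, 55.7%, 50.8% and 51.6% in C1, C2, A1 and A2. Some nuclei of other types carried several of the 8 genes at once. At least 4 were present in 78 such nuclei of C2 and 54 of A2, against 1 and 2 in the replicate 1 libraries. Neurons made up 42 of the 78 and 37 of the 54, and their median depths of 12803 and 11215 UMIs lay above the 8727.5 and 8514 of all neurons there. As a share of the type, they were 1.54% and 1.02% of neurons in C2 and A2, 2.05% and 1.76% of fibroblasts, 2.03% of endothelial nuclei in C2 and 3.57% of ependymal nuclei in A2. The 3 mural nuclei of C2 and the 3 ependymal nuclei of A2 among them were shallower than their types, with medians of 1342 against 1560 and 1795 against 2551 UMIs. Leaving out the nuclei with at least 4 of the genes took 85 of the 251 outside Ttr UMIs from C1, all in 1 tanycyte-like nucleus. The outside Ttr level of C2 was then 592 times that of C1, in place of 401 times, and the rise came from that lower level of C1. Whether RNA free in the suspension, doublets or transcription in these types gave the UMIs was not tested.

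The other 7 genes outside the choroid plexus are described in the oligodendrocytes, of which there were 4981, 4300, 3898 and 3637 in the 4 libraries. Folr1 in oligodendrocytes was at 0.332, 12.4, 0.211 and 7.005 CPM in C1, C2, A1 and A2, so that both replicate 2 libraries lay above both replicate 1 libraries. Its ratio between replicates was 37.4 (95% counting interval 15.7 to 117) in the control group and 33.3 (8.84 to 280) in the AgRP-Gq;POMC-Gi group. Kl was at 0.133, 6.11, 0.316 and 5.71 CPM, with ratios of 46.1 (12.3 to 388) and 18.1 (5.86 to 90.4). Clic6 was at 0.199, 2.85, 0.211 and 1.83 CPM, with ratios of 14.3 (4.50 to 72.9) and 8.70 (2.06 to 77.6). In each of these 3 genes the replicate 1 libraries rested on 2 to 5 UMIs.

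The rarest members followed with wider intervals. Otx2 had 0, 13, 0 and 10 UMIs in oligodendrocytes of the same libraries, so that replicate 2 was at least 5.47-fold higher in the control group and at least 3.41-fold higher in the AgRP-Gq;POMC-Gi group against a floor of 3 counts in the replicate 1 library. Aqp1 had 1, 13, 2 and 5 UMIs, with ratios of 16.4 (2.47 to 698) and 2.56 (0.419 to 26.9), the second of which includes 1. Prlr stood at 5.11, 10.7, 3.16 and 8.84 CPM, with ratios of 2.10 (1.57 to 2.82) and 2.80 (1.82 to 4.40). Enpp2, whose level in oligodendrocytes was high in every library, had 984, 1220, 1414 and 1423 CPM and ratios of 1.24 (1.21 to 1.27) and 1.01 (0.983 to 1.03). Both replicate 2 libraries lay above both replicate 1 libraries for Enpp2 in 9 of the 13 other types, the exceptions being Oligodendrocytes, Oligodendrocytes/OPC, Tanycyte-like and Ms4a4b.Immune. Among the 9, it stood at 48.0, 181, 37.3 and 131 CPM in astrocytes, at 78.7, 286, 49.5 and 175 CPM in Tmem119.Immune and at 59.8, 341, 135 and 340 CPM in mural nuclei. In Ms4a4b.Immune it stood at 274, 165, 0 and 575 CPM. For the other genes the replicates were apart in this way in fewer or as many of the 13 types. The count was 9 for Folr1, 8 for Kl, 7 each for Clic6 and Prlr, 5 for Aqp1 and 2 for Otx2. No count over all genes stands beside these, so they describe the 8 genes and cannot show which exceed the background. No more than 3.33% of oligodendrocytes of any library held a UMI of Folr1, and 1.56% or fewer held one of Kl.

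Set against Ttr, 6 of the 7 genes were fewer in oligodendrocytes than in choroid plexus nuclei in both replicate 2 libraries, and Enpp2 was not. In C2 oligodendrocytes held 3.72 Folr1 UMIs per 1000 Ttr UMIs, whereas choroid plexus nuclei held 9.82. Kl stood at 1.83 against 17.3, Clic6 at 0.855 against 21.1, Otx2 at 0.327 against 11.6, Aqp1 at 0.327 against 0.595 and Prlr at 3.22 against 26.7 per 1000 Ttr UMIs. In A2 the same quantities were 3.36 against 11.3 for Folr1, 2.74 against 19.0 for Kl, 0.878 against 20.1 for Clic6, 0.517 against 13.4 for Otx2, 0.258 against 0.926 for Aqp1 and 4.24 against 31.3 for Prlr. Enpp2 stood at 366 per 1000 Ttr UMIs in oligodendrocytes against 316 in choroid plexus nuclei of C2, and at 682 against 409 in A2. Over all nuclei of other types, with the 4 libraries pooled, the outside ratio to Ttr as a multiple of the inside ratio was 0.0564 for Otx2, 0.144 for Clic6, 0.325 for Kl, 0.378 for Folr1, 0.662 for Aqp1, 0.943 for Prlr and 1.33 for Enpp2. Thus 6 of the 7 genes were below 1 and Enpp2 was above it. The sides of Prlr and Enpp2 were not stable. Prlr was above 1 without C2 (1.76) and without A2 (1.13), and Enpp2 was below 1, at 0.712, with the replicate 2 libraries alone. Without nuclei of at least 10 Ttr UMIs Prlr stood at 1.48. That setting selects on Ttr, the denominator of the ratio, so it cannot check the side. Without C2 the values of Clic6, Kl and Enpp2 moved to 0.255, 0.556 and 2.27, and those of Clic6 and Prlr were 0.0909 and 0.501 with the replicate 2 libraries alone.

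The unequal gain was followed over more genes of the choroid plexus, by an approach chosen after the data were seen. In A2, 110 genes had at least 50 choroid plexus UMIs and a CPM at least 5-fold above that of any other type with 50 or more nuclei, and 7 of the 8 genes were among them, all but Aqp1. Their gain was then read from the control group, as the UMIs per oligodendrocyte in replicate 2 minus those in replicate 1, in percent of the level in a choroid plexus nucleus of C2. The gain was above 0 for 82 of the 110 (74.5%), against 1428 of 6042 genes (23.6%) with at least 50 choroid plexus UMIs whatever their fold over other types. Oligodendrocytes of C1 were deeper than those of C2, at a mean of 3028 against 2776 UMIs, and the gain per nucleus, its share above 0 and its relation to span carry this difference. By CPM, which divides by depth, 86 of the 110 (78.2%) and 3244 of the 6042 (53.7%) stood higher in C2. The gain per nucleus was highest for Ttr, at 5.32%, followed by Sostdc1 at 2.86%, Folr1 at 1.96%, Steap1 at 1.89% and Rilp at 1.29%. Enpp2 gained 0.743%, Kl 0.551%, Prlr 0.309%, Clic6 0.200% and Otx2 0.150%. In the AgRP-Gq;POMC-Gi group, which includes the library that chose the 110, the gains of the same genes were 3.41% for Ttr, 0.993% for Folr1, 0.471% for Kl, 0.308% for Prlr, 0.297% for Enpp2, 0.134% for Clic6 and 0.133% for Otx2. Aqp1, outside the set of 110, gained 2.73% in the control group and 0.603% in the other, from 13 and 5 oligodendrocyte UMIs in the replicate 2 libraries.

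Genes with a short span gained more than long ones in this set. The median gain was 0.253% for the 47 genes under 20 kb and 0.109% for the 63 genes of 20 kb or more. Spearman's rho across the 110 genes was -0.357 with gene span (-0.355 with the gain taken in CPM), 0.418 with the percentage of the span that is exonic and -0.113 with the choroid plexus UMIs of C2; these genes share their libraries and are not independent, so no p is given. Ttr and Folr1, at 9.04 and 12.5 kb, were among the short genes, and Prlr, at 171.9 kb, among the long ones. Otx2, at 16.1 kb, was short and gained little.

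**Figure D5:**
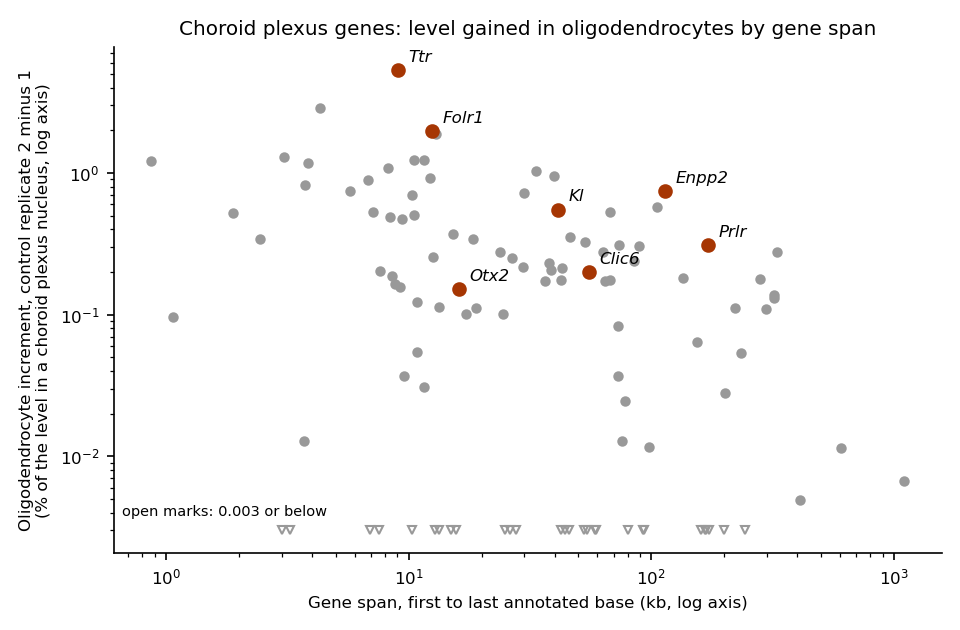
Gain of 110 choroid plexus genes in control oligodendrocytes, replicate 2 minus replicate 1, in percent of the level in a choroid plexus nucleus (vertical, log axis), against gene span in kb (horizontal, log axis). Filled marks with names are 7 of the 8 genes, grey marks the others, and open marks the genes at or below 0.003; Ttr is highest at 5.32%, and medians are 0.253% under 20 kb and 0.109% from 20 kb.

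Genes that separated the replicates of both groups were then listed, by a rule likewise set after the data were seen. In oligodendrocytes, 12 of 14468 genes with at least 50 UMIs, or 0.0829%, were at least 4-fold higher in replicate 2 than in replicate 1 in both groups, and 0 were at least 4-fold lower. The 12 included 4 of the 8 genes (Ttr, Folr1, Kl and Clic6) beside Ecrg4, Sostdc1, Steap1, 2900040C04Rik, Wfdc2, Kcne2, Tmem72 and Ltc4s. Of the 12, 11 had their highest level in Choroid plexus, which held for 9.83% of all genes tested. The exception was Ltc4s. At a 2-fold limit 20 of 32 genes in oligodendrocytes, 5 of 10 in neurons and 8 of 28 in astrocytes were highest in Choroid plexus. In neurons 4 of 18972 genes passed, or 0.0211%, and these were Ttr, Folr1, Ecrg4 and Sostdc1. The one gene at least 4-fold lower there (0.00527%) was Slc6a4, the serotonin transporter. In astrocytes the same 4 genes were higher, of 13208 (0.0303%), and 0 were lower.

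Some of the 8 genes were measured outside the choroid plexus in every library, including those with 2 and 6 of its nuclei. Enpp2 was found in 87.8%, 90.9%, 91.0% and 93.4% of oligodendrocytes in the 4 libraries, at 1260 ± 207 CPM (SD, n = 4), and the next type, Oligodendrocytes/OPC, stood at 418 ± 141 CPM. The library with 2 choroid plexus nuclei stood lowest, at 984 CPM, and the highest stood at 1423 CPM. Prlr in neurons stood at 29.0, 28.8, 28.2 and 28.0 CPM, with a UMI in 12.9%, 13.7%, 11.9% and 13.97% of nuclei. The shares of both replicate 2 libraries lay above those of both replicate 1 libraries, while the CPM overlapped. Over the 163 clusters outside the choroid plexus that every library filled with 5 nuclei or more, Prlr was highest in neuron cluster 167, named Tph2/Slc6a4 for genes of serotonin neurons, at 346 ± 93.6 CPM. Clusters 80 (Pdyn/Cpa6) at 163 ± 19.5 and 109 (Gcg/Reln, with the glucagon-like peptide gene Gcg) at 148 ± 102 CPM were also among the highest and overlapped one another.

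Kl and Otx2 had narrower sites. Kl in fibroblasts stood at 61.2, 44.8, 56.4 and 87.9 CPM, led by cluster 44 at 73.8 ± 18.2 and cluster 27 at 58.4 ± 9.37 CPM. In neurons it stood at 3.4996, 4.67, 2.87 and 5.84 CPM, so that both replicate 2 libraries lay above both replicate 1 libraries. The shares of neurons with a UMI, at 2.996%, 4.39%, 2.30% and 4.92%, were likewise apart. Neuron cluster 81 (Gbx1/Fgf10) had a mean of 36.6 ± 11.2 CPM over the 4 libraries, which stood at 35.3, 22.5, 38.8 and 49.8 CPM. Otx2 was highest outside the choroid plexus in neuron cluster 104, named Gabra6/Fat2 for genes of cerebellar granule cells, at 54.4 ± 26.3 CPM from 16 UMIs. That cluster was positive in each library, with 6, 4, 4 and 2 UMIs.

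Ependymal nuclei held low levels of 4 of the 8 genes in most libraries, including those with few choroid plexus nuclei. Folr1 stood there at 15.6, 39.8, 57.7 and 30.4 CPM, with ependymal cluster 37 at 47.0 ± 22.0 CPM. Otx2 stood at 15.6, 19.9, 12.4 and 13.04 CPM and Clic6 at 23.4, 14.9, 12.4 and 21.7 CPM. Aqp1 rested on 1, 2, 0 and 2 UMIs, Otx2 on 4, 4, 3 and 3, Clic6 on 6, 3, 3 and 5 and Folr1 on 4, 8, 14 and 7. For Folr1, Otx2 and Clic6 the replicate 1 and replicate 2 libraries overlapped there, whereas in the oligodendrocytes of the same libraries they did not. With so few counts in far fewer nuclei than the oligodendrocytes, the overlap is not a like comparison.

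The genes most like each of the 8 were ranked by Pearson's r of log2(mean CPM + 1) over the 14 types, among 12122 genes, as a description over types that share libraries. For Ttr they were Surf1 (r = 0.943), Sept10 (0.922), Arl6ip1 (0.904), Gm16196 (0.898) and Ubxn1 (0.890), and none of the other 7 genes was nearer than Folr1 at 0.853. For Otx2 they were Tmem237 (0.970), Oca2 (0.960), Otx2os1 (0.952), Cldn2 (0.942) and Krt8 (0.942). Otx2os1 is the antisense neighbour of Otx2, and its value is uncertain because the strand setting of the counting was not given in the sources used here. For Folr1 the nearest was Cldn2, the claudin of leaky epithelia, at 0.946. For Clic6 it was Pde6b at 0.959, for Enpp2 Cab39l at 0.897, for Kl Ypel1 at 0.907, for Prlr Arr3 at 0.936 and for Aqp1 Defb11 at 0.935.

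A second list of 28 choroid plexus genes was read beside the 8, and 26 of them had at least 20 UMIs in choroid plexus nuclei. Of these 26, 23 were highest in Choroid plexus, with folds over the next type of 1.00 to 39.4. The exceptions were Igfbp2 and Slc5a5, highest in Fibroblasts, and Calml4, highest in Ependymal. By mean CPM the first 6 were the serotonin receptor Htr2c at 10246 CPM, Cab39l at 998, the sodium-potassium-chloride cotransporter Slc12a2 at 822, the sodium pump subunit Atp1b1 at 732, Tmem72 at 631 and the bicarbonate transporter Slc4a5 at 488. In oligodendrocytes 23 of the 26 were higher in the replicate 2 library than in replicate 1 in both groups (88.5%), as were 4984 of the 12122 genes with at least 20 choroid plexus UMIs (41.1%). Tmem72 stood there at 0, 2.60, 0.211 and 2.26 CPM and Slc4a5 at 3.25, 5.70, 2.21 and 2.80 CPM, while Cab39l, also an oligodendrocyte gene, stood at 666, 613, 376 and 324 CPM.

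The comparison the study was built for, AgRP-Gq;POMC-Gi against control, was then fitted for every gene with at least 20 UMIs in each of 13 types and in all nuclei outside the choroid plexus, with edgeR's quasi-likelihood test and Benjamini-Hochberg adjustment over all genes of the type. The 8 genes gave 56 tests, and 0 of them were called at the adjusted threshold of 0.05. Before adjustment 3 fell under 0.05, or 5.36%, and DESeq2 called 0. The share of all genes under an unadjusted 0.05 was 7.36% in oligodendrocytes, 5.51% in neurons and 16.2% over all nuclei outside the choroid plexus. At the adjusted threshold the background was 28 of 16553 genes called in oligodendrocytes (0.169%), 1 of 21200 in neurons (0.00472%) and 88 of 22741 over all nuclei outside the choroid plexus (0.387%). It was 0.357% in astrocytes, 0.335% in mural nuclei, 0.153% in F13a1.Immune and 0.0344% in OPC, and 0% in the other types. The Choroid plexus type itself was not tested, since C1 had 2 nuclei of it.

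Ttr was lower in the AgRP-Gq;POMC-Gi group in all 14 fits, and the standard error exceeded the difference in all of them but F13a1.Immune and Tanycyte-like. In oligodendrocytes the 4 libraries stood at 5.97 and 3333 CPM in the control group and 24.3 and 2085 CPM in the AgRP-Gq;POMC-Gi group, so that the groups overlapped fully. The log2 difference there was -0.70 with a standard error of 1.86 and an adjusted p of 0.956 by edgeR. In neurons it was -0.76 with a standard error of 1.95 and an adjusted p of 0.960. With the replicate number as a block the log2 difference turned to 0.42 in oligodendrocytes, 0.14 in neurons and 0.059 over all nuclei outside the choroid plexus. The sign also rested on single libraries. Without C2 the log2 difference in oligodendrocytes was 7.42 (adjusted p 6.48e-55 by edgeR) and without A2 it was -5.94 (adjusted p 0.0240), so that opposite directions were called according to which library rich in choroid plexus nuclei was left out. It was -1.68 (adjusted p 0.830) without C1 and 0.29 (adjusted p 0.978) without A1. Choroid plexus share and group therefore cannot be told apart in any fit that lacks one of these libraries.

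The genes with a level of their own outside the choroid plexus were measured with smaller errors. Enpp2 in oligodendrocytes was 0.42 higher on the log2 scale in the AgRP-Gq;POMC-Gi group, with a standard error of 0.16, an unadjusted p of 0.0295 and an adjusted p of 0.597 by edgeR. Both AgRP-Gq;POMC-Gi libraries, at 1414 and 1423 CPM, lay above both control libraries, at 984 and 1220 CPM, but an exact two-sided permutation test of 2 against 2 libraries cannot go below 0.3333. The lowest unadjusted p of the 56 was 0.0107, for Enpp2 in Tanycyte-like nuclei, which was lower in the AgRP-Gq;POMC-Gi group, at -1.23 on the log2 scale with a standard error of 0.42 (adjusted p 0.807 by edgeR). The libraries stood there at 686 and 337 CPM in the control group and 180 and 221 CPM in the AgRP-Gq;POMC-Gi group, and 53 of the 67 Enpp2 UMIs of C1 came from the single nucleus described above. Prlr in neurons differed by 0.024 on the log2 scale with a standard error of 0.088 (adjusted p 0.972 by edgeR). Kl in fibroblasts differed by 0.55 with a standard error of 0.35 (adjusted p 0.9996 by edgeR).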

How the data were processed

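Nuclear RNA of 4 libraries, from control and AgRP-Gq;POMC-Gi mice, was counted by the authors with Cell Ranger 7.0.0 on GRCm38 (mm10) and handled in Seurat 4.3.0, per the labels. The authors deposited raw UMI counts per gene and nucleus, together with a table of each nucleus's library, cell type, cluster and whether it was kept. The table also gives the percentage of mitochondrial UMIs per nucleus as deposited by the authors, whose filter asked for a minimum of 800 UMIs and 500 genes, allowed up to 10% mitochondrial UMIs and removed doublets. Of 44303 barcodes, 39461 were kept. A joined matrix repeating the 4 libraries was not used.

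From the counts, UMIs were summed per library and annotated type with Python 3.11.15, pandas 2.3.3 and numpy 2.4.6, and given as CPM, as UMIs per nucleus and as the share of nuclei with a UMI, with exact Clopper-Pearson 95% intervals from scipy 1.17.1. Ratios have exact conditional intervals. A count of 0 was bounded by a floor of 3 counts per library. Shares were also computed after thinning each nucleus to 800 UMIs. Groups were compared with edgeR 4.0.16 in R 4.3.3 (quasi-likelihood, TMM factors, genes with at least 20 UMIs over the 4 libraries, types with at least 5 nuclei in every library), with DESeq2 1.42.0 as an alternative; the edgeR step was tested on simulated data. The mixed model over nuclei that the study used was not run. The label numbers each library within its group, nothing says which mice gave which library, and p-values therefore measure only the spread between these libraries, which may be technical.

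The 8 genes and all gene lists were chosen with earlier results of these data known. The 8 genes are always named. Genes of the second list are named in order of CPM, like-patterned genes by r, and clusters by mean CPM. Genes in the 4-fold comparison and in the set of 110 came from rules set after the data were seen, with a pseudocount of 0.2 CPM in the former. Sequences are RefSeq's on GRCm38.p6, and no window was used for the other 4 genes. Results that need certain withheld genes are not reported here.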

Additional observations from a re-analysis of the deposited data

Results flagged for a closer look

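Barcodes that the authors did not keep enter no comparison above, and a signal of the 8 genes appeared there as well. Among them, 121 in control replicate 2 and 82 in AgRP-Gq;POMC-Gi replicate 2 held UMIs of at least 4 of the 8 genes, which is 9.18% of 1318 and 6.65% of 1233 barcodes. The replicate 1 libraries had 1 such barcode each, or 0.0776% and 0.0997%. The median depths of the 121 and 82 were 8844 and 8200.5 UMIs, and 113 and 72 of them met the authors' limits on UMIs, genes and mitochondrial share.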

How the results depend on the processing

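All 8 genes were highest in Choroid plexus under thinning, per nucleus, on the log-normalized scale, in the replicate 2 libraries alone and with any 1 library left out. The count of 0 calls among the 56 tests held without TMM factors, with DESeq2, with genes in at least 5% of nuclei and with filterByExpr. With genes of at least 1 UMI it was 3, all Ttr, and with 1 library left out it was 1 to 13. In those fits the lone library of a group is assumed to vary like the others. Prlr in neurons turned to -0.037 without TMM factors and ranged from -0.034 to 0.082 with 1 library left out.

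No source pairs the libraries that share a replicate number, and with 2 numbers the correlation of their deviations was 0.0582 in neurons, 0.254 in oligodendrocytes and 0.0613 outside the choroid plexus. With the replicate block the members still gave 0 calls, and genes called in all rose from 28 to 156 in oligodendrocytes, from 1 to 216 in neurons and from 88 to 1047 outside the choroid plexus. The log2 difference of Ttr turned to 0.42, 0.14 and 0.059 under the block in these 3 sets. It ranged from -5.94 to 7.42, from -5.94 to 7.63 and from -6.21 to 6.69 in oligodendrocytes, neurons and all outside with 1 library left out, where leaving out C2 gave the high end and A2 the low one, and it was 0.29, 0.22 and 0.05 without A1.

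The choroid plexus share was 5.03% and 3.79% in C2 and A2 when counted as nuclei with at least 4 of the genes, and 5.96% and 5.20% of nuclei that are not neurons. The control ratio of 401 for Ttr outside was 209 on thinned shares, 558 in oligodendrocytes, 674 in neurons, 488 over all barcodes and 592 without nuclei holding at least 4 of the genes. In C1 the last of these settings removed 1 nucleus, which held 85 of the 251 outside Ttr UMIs. The AgRP-Gq;POMC-Gi ratio of 82.7 was 42.7 on thinned shares and 73.2 over all barcodes. Against Ttr, Prlr outside ranged from 0.706 to 1.76 times its inside ratio with 1 library left out, above 1 without C2 or A2 (1.76, 1.13). Enpp2 fell below its inside ratio in the replicate 2 libraries alone (0.712). Without nuclei of at least 10 Ttr UMIs the value of Prlr was 1.48, but that setting selects on Ttr itself and is no check of a ratio to Ttr. The alternatives that use the replicate 2 libraries alone or drop nuclei with at least 4 of the genes, and the settings of the 4-fold rule, were chosen after seeing the data. Under the latter 5 to 32 genes passed in oligodendrocytes, and at a fold of 2 the share highest in Choroid plexus was lower, at 20 of 32 against 11 of 12. In the libraries with 2 and 6 choroid plexus nuclei, levels inside the type are limited by that number.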
